A study of Homo sapiens with 40 samples.

Results

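The genes described here encode lysosomal enzymes and lysosomal membrane proteins: 41 were named by symbol, 39 of them were in the table of 12655 genes, and all 39 passed the filter on low counts and were tested in every comparison. MAN2B1 and CLN3 were not analysed here. The members were chosen by name, without a threshold on any measured value, but the choice was accompanied by the remark that CTSD was lower in the invasive cells of both cell lines, so that fall is given as a description and not as independent support. By role the 39 genes comprised 10 cathepsins and other peptidases, 9 glycosidases, 4 sulfatases, 8 genes of lipid breakdown and cholesterol export, and 8 genes for membrane proteins and granulin.

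Lysosomes are acidic organelles that degrade proteins, glycans, nucleic acids and lipids delivered by endocytosis, phagocytosis and autophagy. Most of their soluble hydrolases carry a mannose 6-phosphate tag and are sorted from the Golgi, and a proton pump keeps the lumen acid. Transcription factors of the TFEB family bind a short palindromic element in the promoters of many of these genes and are held in the cytoplasm when phosphorylated by kinases that respond to nutrients and growth factors. Cathepsins released by carcinoma cells can cut the extracellular matrix, and active EGF receptor is itself degraded in lysosomes.

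RNA was measured in spheroids of FaDu, a cell line from a hypopharyngeal tumour, and Kyse30, a line from an oesophageal tumour, both carrying Dendra2, a fluorescent protein that turns from green to red on illumination. Spheroids lay in type I collagen for 72 h in serum-free medium, in 9 nM epidermal growth factor (EGF), in 9 nM EGF plus the EGF receptor antibody cetuximab at 10 µg/mL, or in 9 nM EGF plus AZD6244 (selumetinib), which inhibits the kinase MEK, at 100 nM. Under EGF alone 2 sorted fractions were sequenced, which the titles call invasive and non-invasive photoconverted cells, whereas the other 3 conditions are labelled unselected. This gave 5 groups of 4 libraries in each line, 40 libraries in all. A further label describes both EGF fractions as invasive, so their division rests on the titles. Because no unselected EGF library was analysed here, the effect of EGF and the effect of sorting cannot be told apart in comparisons of the non-invasive fraction with serum-free or inhibitor-treated spheroids. Each tumour site is represented by 1 line, labelled wildtype. Whether the replicates were grown separately is not stated by any label, and the p-values then describe only how far these libraries scatter, which may be technical.

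Library totals were 2312126 to 5669262 counts for FaDu and 463124 to 4534339 counts for Kyse30. The Kyse30 library with 463124 counts was invasive replicate 1, in which 22 of the 39 members had a count. Counts of called members that involve Kyse30 are therefore given with and without it. The serum-free comparison between the lines is given only with it. Kyse30 non-invasive replicates 1 and 3 also stood apart, with 6.27% and 9.63% of their counts from the nuclear RNA MALAT1. The mitochondrial share of counts was on average highest without EGF, at 14.3% to 15.8% in serum-free FaDu libraries and 7.50% to 11.5% in the non-invasive fraction, and at 19.7% to 23.8% and 8.22% to 19.3% in Kyse30. All 7 squamous epithelial markers were in the table, and their summed level was 3475 to 6540 CPM in FaDu and 554 to 2113 CPM in Kyse30 (CPM, counts per 1e6 counts after TMM scaling for library composition). The keratin KRT17 ranged from 1728 to 4118 CPM in FaDu but from 0 to 25.8 CPM in Kyse30, where KRT5 had a count in 11 of 20 libraries, KRT14 in 8 of 20 and the epithelial adhesion gene EPCAM was at 159 to 390.8 CPM. None of the 7 macrophage markers was listed, and 1 of 7 fibroblast markers (COL1A1) and 1 of 3 endothelial markers (CDH5) were. These markers moved with the groups: from serum-free to non-invasive libraries the summed squamous markers went from 3620 to 5023 CPM on average in FaDu and from 604 to 1302 CPM in Kyse30, COL1A1 from 20.7 to 7.91 and from 7.71 to 7.79 CPM, and CDH5 from 3.41 to 0.056 and from 26.6 to 4.78 CPM. The squamous markers did not move as 1 group: in FaDu 2 of 7 rose with EGF (SFN and KRT14) and 2 fell (KRT5 by 3.31 ± 0.35 on the log2 scale, edgeR adjusted p = 5.37e-07, and TP63 by 0.66), and with AZD6244 KRT5 and KRT17 were higher and SFN and KRT14 lower than in the non-invasive fraction. In Kyse30 1 of the 5 that passed the filter rose with EGF, SFN by 2.35. The part of these shifts, and of the mitochondrial share, in the results on lysosomal genes was not tested. Since the libraries are bulk RNA, fewer cells of a kind and less RNA per cell cannot be told apart. Each library was made by counting 3′ ends, so a level does not grow with transcript length.

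Together the 39 genes supplied about the same share of all counts in the serum-free spheroids of the lines and a smaller share under EGF. In FaDu the share was 0.538% to 0.566% in serum-free libraries, 0.297% to 0.333% in the non-invasive fraction, 0.255% to 0.286% in the invasive fraction, 0.255% to 0.323% with cetuximab and 0.364% to 0.470% with AZD6244. In Kyse30 it was 0.524% to 0.568%, 0.279% to 0.440%, 0.290% to 0.346%, 0.470% to 0.605% and 0.503% to 0.650% in the same order. Every serum-free library lay above every library of both EGF fractions in each line. With cetuximab the FaDu libraries overlapped the EGF fractions, whereas the Kyse30 libraries lay above them; whether the lines differ in this share was not tested.

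**Figure D1:**
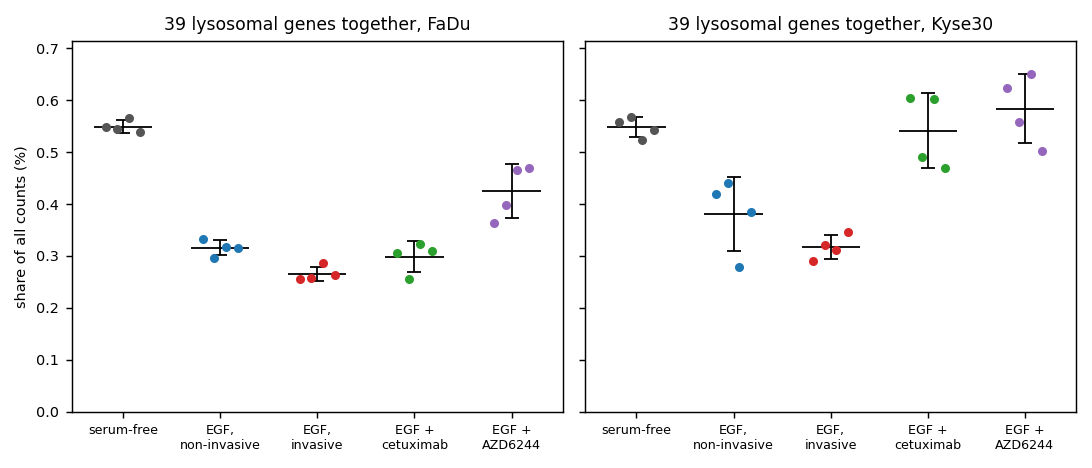
Share of all counts taken by the 39 lysosomal genes (y axis, percent) in each of the 5 groups (x axis) of FaDu and Kyse30. Each point is 1 library, horizontal bars are means and whiskers are 1 SD; serum-free libraries sit at 0.538% or above in FaDu and at 0.524% or above in Kyse30, and the EGF fractions sit below them.

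CTSD encodes the aspartic protease cathepsin D (chromosome 11, 1752755 to 1763927, GRCh38). It was the 1 member called in all 8 comparisons that use the non-invasive fraction. These set that fraction against serum-free medium, and the invasive, cetuximab and AZD6244 groups against it, in each line. In Kyse30 CTSD was not called with either inhibitor against serum-free medium, and its invasive fall was known when the members were chosen. In FaDu its level was 656, 703, 676 and 679.8 CPM in the serum-free libraries and 145, 106, 149.6 and 146 CPM in the non-invasive fraction. The invasive fraction held 104, 93.9, 93.5 and 97.6 CPM. These 3 groups did not overlap, and the fall from serum-free to the EGF fractions was the larger step. With cetuximab the FaDu libraries held 219.7, 248, 243 and 176 CPM, and with AZD6244 340.5, 368, 407 and 409 CPM. Both inhibitor groups thus lay above all non-invasive and below all serum-free libraries.

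In Kyse30 the serum-free libraries held 809, 777, 839.8 and 921 CPM of CTSD, the non-invasive fraction 370.2, 356, 306 and 287 CPM, and the invasive fraction 131, 197, 132 and 212 CPM. The order of these 3 groups was that seen in FaDu, again without overlap. With cetuximab the values were 1052, 722, 1117 and 763 CPM, and with AZD6244 548, 595, 852 and 559.6 CPM. Here the cetuximab libraries spanned the serum-free range, and the AZD6244 libraries overlapped it only through replicate 3.

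**Figure D2:**
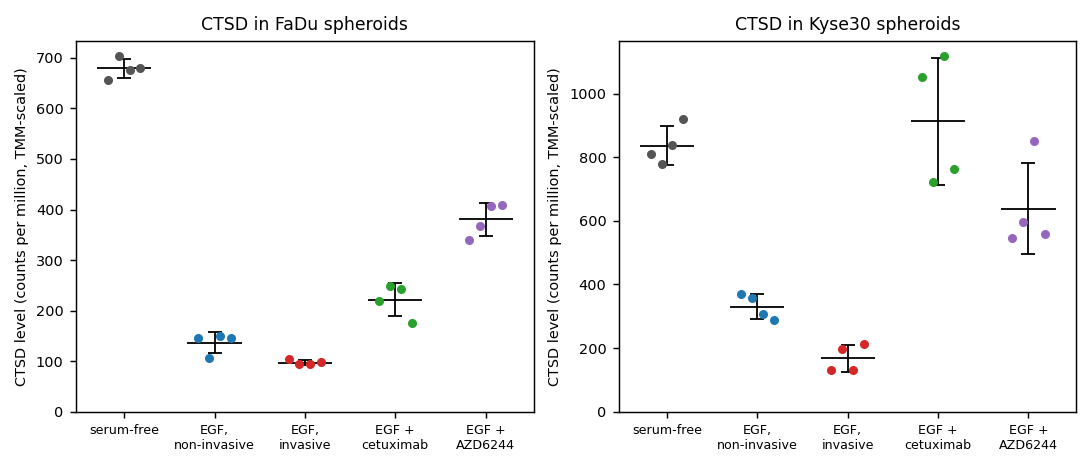
CTSD level (y axis, CPM, TMM-scaled) in each library of the 5 groups (x axis) of FaDu and Kyse30; points are libraries, horizontal bars means and whiskers 1 SD (n = 4). The invasive fraction is lowest in both lines, at 93.5 to 104 CPM in FaDu and 131 to 212 CPM in Kyse30.

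In FaDu most lysosomal genes were lower in the EGF-treated non-invasive fraction than in serum-free medium: 22 of 39 members were lower and 3 higher at an adjusted p under 0.05 (edgeR quasi-likelihood test, Benjamini-Hochberg over 12131 genes), or 64.1%, against 50% of all genes tested, of which 24.7% were lower and 25.3% higher. The median log2 fold change was -0.73 over the members and -0.02 over all genes.

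Among the peptidases 6 of 10 were lower and none higher. CTSS, the elastolytic cysteine protease cathepsin S, fell from 60.3 ± 5.46 to 2.15 ± 1.14 CPM (SD, n = 4), a log2 change of -4.80 ± 0.37 (SE, adjusted p = 5.46e-11). Cathepsin H, encoded by CTSH, an aminopeptidase, fell by 3.48 ± 0.42 on the log2 scale (adjusted p = 1.09e-07). For CTSD the change was -2.31 ± 0.13 (adjusted p = 8.25e-14), which is 4.96-fold. The other peptidases that fell were CTSB, TPP1 and CTSA, with log2 changes of -1.23, -1.04 and -0.82, while CTSC, CTSL, CTSZ and LGMN did not pass the test.

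Of the 9 glycosidases 5 were lower and 1 higher. GAA, the acid alpha-glucosidase that degrades glycogen, fell from 86.3 ± 6.69 to 15.5 ± 1.08 CPM (log2 -2.47 ± 0.18, adjusted p = 1.59e-11). FUCA1, NAGLU, MANBA and HEXA, which remove fucose, N-acetylglucosamine, mannose and N-acetylhexosamine residues, fell by 1.69, 1.38, 1.02 and 0.90. The rise was in GLA, alpha-galactosidase A, from 1.01 ± 0.647 to 4.77 ± 0.975 CPM (log2 2.16 ± 0.60, adjusted p = 0.00398), a gene of very low level in this line. Among the 4 sulfatases SGSH fell by 1.60 and IDS, iduronate-2-sulfatase, rose by 0.81 ± 0.21 (adjusted p = 0.0025).

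Of the 8 genes of lipid breakdown and cholesterol export 5 were lower and 1 higher. ASAH1, acid ceramidase, fell by 1.48 ± 0.15 on the log2 scale (adjusted p = 4.68e-09). PSAP, the precursor of the saposins that activate sphingolipid hydrolases, fell from 912 ± 46.6 to 480 ± 19.8 CPM, a log2 change of -0.92 ± 0.10. LIPA, PPT1 and NPC2, encoding acid lipase, a palmitoyl thioesterase and the soluble cholesterol carrier of the lumen, fell by 0.91, 0.87 and 0.58. The membrane partner of NPC2 in cholesterol export, NPC1, went the other way, from 36.0 ± 4.58 to 86.7 ± 9.52 CPM (log2 1.27 ± 0.16, adjusted p = 1.93e-07).

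Of the 8 membrane protein and granulin genes 5 were lower. GRN, the granulin precursor, fell by 1.33 ± 0.13 on the log2 scale (adjusted p = 4.19e-09), and LAPTM4A, a membrane protein of late endosomes and lysosomes, fell by 1.17. The abundant coat glycoproteins LAMP2 and LAMP1 fell by 0.78 and 0.54, and ATP6AP1, an accessory subunit of the proton pump, by 0.57. CD63, SCARB2 and MCOLN1 did not pass the test. The call on MANBA was lost in 8 of 16 alternative fits, among them those without non-invasive replicates 2, 3 or 4 or serum-free replicates 1, 2 or 3 (adjusted p up to 0.114), and the other 24 calls in none.

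In Kyse30 the same comparison called 8 of 39 members lower and 1 higher (edgeR), 23.1% against 12.9% of 11976 genes tested, of which 4.76% were lower and 8.1% higher. The members' median log2 change was -0.38 beside 0.03 for all genes. Without invasive replicate 1, which takes no direct part in this contrast but shares the estimate of spread, 13 members were lower and 3 higher, 41% against 27.8% of all genes. The genes called lower were ASAH1, CTSD, PPT1, CTSB, CTSA, ATP6AP1, NPC2 and LAPTM4A, with log2 changes from -1.41 ± 0.33 for ASAH1 to -0.67 ± 0.19 for LAPTM4A, and CTSD changed by -1.34 ± 0.20 (adjusted p = 5.36e-05). IDS rose by 0.66 ± 0.17 (adjusted p = 0.0118). The calls on CTSA, LAPTM4A and ATP6AP1 were lost when single non-invasive or serum-free libraries were left out (adjusted p up to 0.0612, 0.129 and 0.112), serum-free replicate 2 being among them for each, and those on IDS and NPC2 only without both high-MALAT1 libraries (0.0615 and 0.171). All 8 genes called lower in Kyse30 (100%) were also lower in FaDu, where they made up 36.4% of the 22. Over all genes tested in both lines 64.1% of those lower in Kyse30 were lower in FaDu, and these made up 11.5% of the FaDu calls.

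The size of the EGF contrast differed between the lines for 7 of 39 members (edgeR interaction test over 40 libraries), 17.9% against 15.7% of 12652 genes, of which 9.48% were higher and 6.2% lower, and all 7 had a more positive change in Kyse30. The log2 difference, Kyse30 minus FaDu, was 3.97 ± 0.82 for CTSH and 3.94 ± 0.69 for CTSS. In Kyse30 CTSH was low throughout, at 3.25 ± 2.30 CPM in serum-free and 4.41 ± 1.63 CPM in non-invasive libraries, and CTSS went from 59.6 ± 15.1 to 33.1 ± 29.2 CPM. LIPA, GAA, NAGLU, CTSD and GRN differed by 1.47, 1.44, 1.35, 0.98 and 0.87, and each of these 5 calls was lost when 1 replicate number was left out of every group (adjusted p up to 0.212, 0.116, 0.271, 0.0897 and 0.23). The share of 17.9% is near that of all genes. With invasive replicate 1 left out of the fit, 11 of 39 members were called, against 24.7% of all genes.

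**Figure D3:**
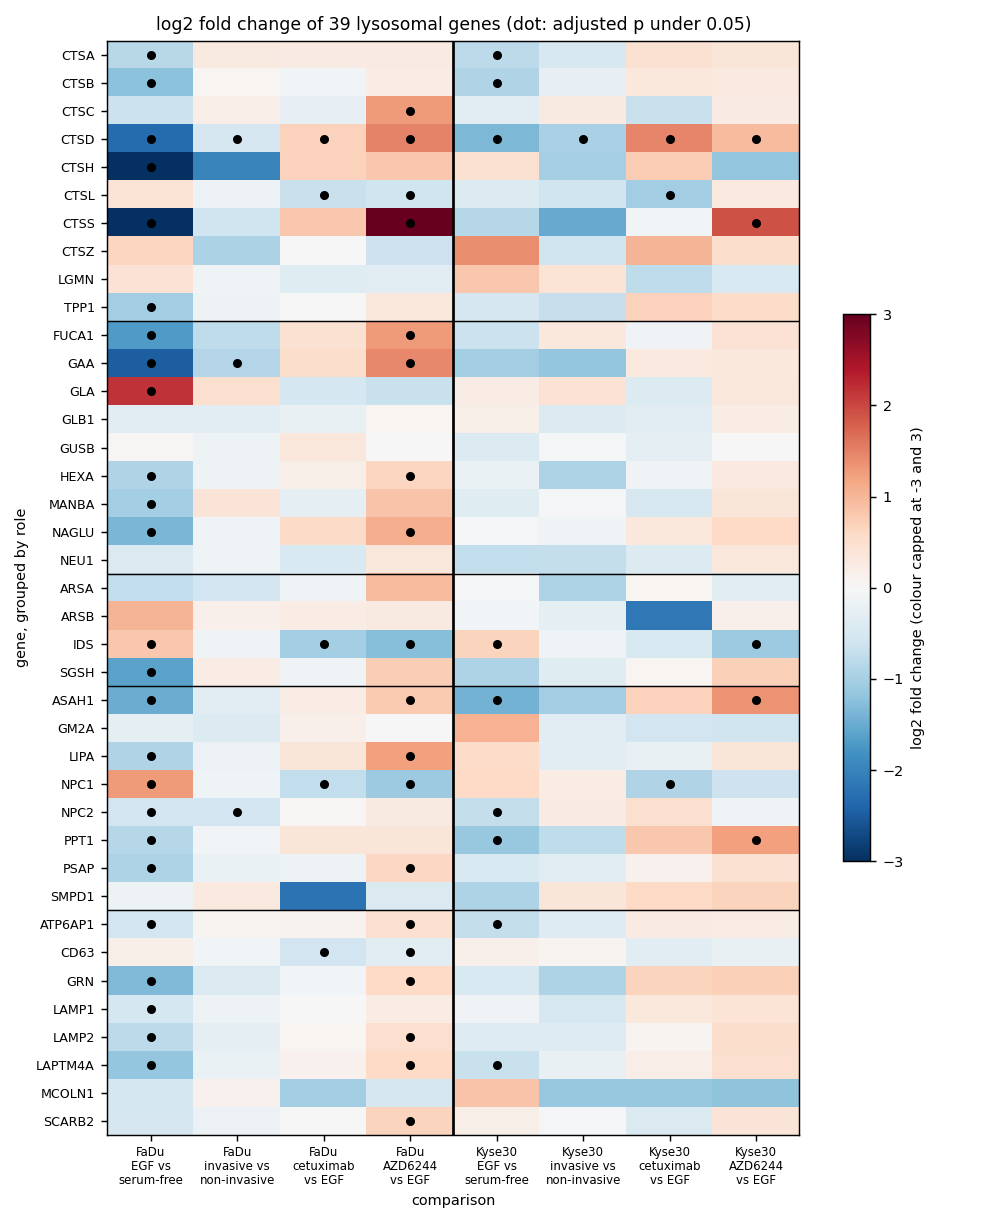
log2 fold change (colour, red higher and blue lower, capped at -3 and 3) of each of the 39 genes (rows, grouped by role) in 4 comparisons per line (columns); a dot marks an adjusted p under 0.05. The EGF column of FaDu is mostly blue with 22 dots for lower genes, the AZD6244 column of FaDu holds 15 dots for higher genes, and CTSD carries a dot in all 8 columns.

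The promoters of these genes were searched for the core of the element bound by the TFEB family, because many members fell together. RefSeq windows from 250 bases before to 50 bases after the gene start (GRCh38.p14) were available for 28 of the 39 members. The letters TCACGTGA, the same on both strands, were present in 4 of the 28 genes (14.3%), CTSA, GAA, LAMP1 and MCOLN1, and in 1.18% of 27305 genes with such a window or 2.32% of the 9812 that are in the count table. The shorter E-box CACGTG, which every TCACGTGA contains, was present in 8 of 28 (28.6%), against 8.77% and 12.6%. The element is known from the promoters of many lysosomal genes, so a higher share among the members follows from how they were chosen. Any link between the element and the changes seen here was not tested. The promoter of CTSD is shown too, because CTSD was called in all 8 comparisons that use the non-invasive fraction. It and those of the 4 genes are given from 80 bases before to 20 bases after the start. They run 5′ to 3′ on the coding strand, with TCACGTGA or CACGTG in capitals.
CTSA, chr20:45891255-45891354, plus strand: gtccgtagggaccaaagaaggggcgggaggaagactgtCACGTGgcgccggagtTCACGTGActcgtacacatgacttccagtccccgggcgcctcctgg
CTSD, chr11:1763908-1764007, minus strand: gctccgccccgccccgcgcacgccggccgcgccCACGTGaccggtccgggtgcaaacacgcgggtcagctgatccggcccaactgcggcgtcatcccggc
GAA, chr17:80101501-80101600, plus strand: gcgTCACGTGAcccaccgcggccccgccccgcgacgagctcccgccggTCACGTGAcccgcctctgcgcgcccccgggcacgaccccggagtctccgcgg
LAMP1, chr13:113297159-113297258, plus strand: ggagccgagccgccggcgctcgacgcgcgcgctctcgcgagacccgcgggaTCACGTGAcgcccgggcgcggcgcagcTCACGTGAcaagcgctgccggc
MCOLN1, chr19:7522544-7522643, plus strand: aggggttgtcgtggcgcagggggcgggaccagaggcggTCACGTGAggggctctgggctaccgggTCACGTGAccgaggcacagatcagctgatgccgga

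GAA, LAMP1 and MCOLN1 each held 2 copies of TCACGTGA, CTSA held 1, and CTSD held CACGTG alone, starting 47 bases before its gene start. Of the 4 genes with TCACGTGA, CTSA, GAA and LAMP1 were lower with EGF in FaDu, as were 22 of all 39 members. MCOLN1, the calcium channel of the lysosomal membrane, was at 2.71 ± 1.20 and 1.83 ± 0.632 CPM and did not pass the test. CTSD was lower too, but its promoter is shown because it was called. In Kyse30 CTSA and CTSD were called lower with EGF, and GAA, LAMP1 and MCOLN1 were not. Nothing is read from these counts. A match is a description of the letters and shows no binding. Of the transcription factors themselves, TFEB passed the filter on low counts only in Kyse30 and was not called there, TFE3 was not called in any comparison within a line but was lower in Kyse30 than in FaDu in serum-free medium (log2 -1.57, edgeR adjusted p = 0.000649), and MITF was lower with AZD6244 than in the non-invasive fraction in FaDu (log2 -1.35 ± 0.50, edgeR adjusted p = 0.0414).

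In FaDu 3 of 39 members were lower in the invasive than in the non-invasive fraction under EGF and none was higher (edgeR), 7.69% against 3% of all genes, of which 2.34% were lower and 0.659% higher, and the median log2 difference was -0.16 beside -0.01 for all genes. GAA stood at 9.81, 9.76, 6.42 and 7.89 CPM in invasive libraries and at 14.3, 15.6, 16.9 and 15.2 CPM in non-invasive ones, a log2 difference of -0.87 ± 0.20 (adjusted p = 0.0118). NPC2 stood at 136, 107, 154 and 150.2 against 226, 171, 194 and 219.7 CPM (log2 -0.56 ± 0.14, adjusted p = 0.0245). For both genes the fractions did not overlap. CTSD differed by -0.49 ± 0.12 (adjusted p = 0.0264), a 1.41-fold lower level. None of the 3 calls held in all 16 alternatives, although no direction changed: the CTSD call was lost in 8, with adjusted p up to 0.271, the NPC2 call in 6 and the GAA call in 3. Single libraries sufficed for CTSD (non-invasive replicates 1, 3 and 4 and invasive replicates 2, 3 and 4, adjusted p from 0.061 to 0.102) and for NPC2 (non-invasive replicates 1, 3 and 4 and invasive replicates 1 and 2, from 0.0506 to 0.104). At an unadjusted p under 0.05, 9 members were lower and none higher. The share of all genes at this threshold is not given, so nothing is read from this count.

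In Kyse30 CTSD was the 1 member called lower in the invasive fraction (log2 -0.96 ± 0.20, 95% interval -1.36 to -0.57, edgeR adjusted p = 0.0325), which is 1.95-fold. CTSD alone makes up 2.56% of the members, beside 0.409% of all genes called, 0.342% lower and 0.0668% higher; since its fall in both lines was known when the members were chosen, nothing is read from this share. The median log2 differences were -0.36 for the members and -0.15 for all genes. Without the shallow invasive replicate 1 CTSD was at -0.87 ± 0.19 (adjusted p = 0.0136), GRN was also lower (log2 -0.88 ± 0.24, adjusted p = 0.0487), and 5.13% of members compared with 2.1% of genes. The CTSD call was lost in 9 of 18 alternatives. It was lost when non-invasive replicate 1, 2 or 3 or invasive replicate 3 was left out, with adjusted p of 0.11, 0.0756, 0.0528 and 0.164, each with CTSD still lower in the invasive fraction. Removing the 2 libraries with high MALAT1 gave an adjusted p of 0.278 at a log2 difference of -0.95, and also removing the shallow library 0.0718. The call was also lost with limma-voom (0.112), with the replicate block (0.0702) and in a fit to only the 8 libraries compared (0.693, the highest of all, at a log2 difference of -0.96). GAA, which fell in FaDu, was at 14.0, 10.6 and 14.9 CPM in 3 invasive libraries and at 0 in the shallow one, all below the 18.2 to 35.2 CPM of the non-invasive fraction, but did not pass the test (log2 -1.16, adjusted p = 0.218). NPC2 was not lower in Kyse30 (359 ± 65.8 against 303 ± 71.0 CPM, adjusted p = 0.638).

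The interaction test found no member whose invasive difference differed between the lines (edgeR, 0 of 39, against 0.182% of genes, 0.142% higher and 0.0395% lower), with 1 higher and 2 lower at an unadjusted p under 0.05 and 1 call by DESeq2 and none by limma-voom. With Kyse30 invasive replicate 1 left out, edgeR again called 0 members, against 0.585% of genes. For CTSD the difference between the lines was -0.48 with all libraries, with a 95% interval of -0.96 to 0.01 (edgeR adjusted p = 0.555). The libraries of the non-invasive fraction enter the EGF, invasion and inhibitor comparisons alike, so these comparisons are not independent of each other.

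In FaDu 1 member was higher and 4 were lower with cetuximab than in the non-invasive fraction (edgeR), 12.8% against 8.56% of all genes, of which 3.64% were higher and 4.93% lower, and the median log2 difference was 0.00 for members and 0.05 for all genes. CTSD rose by 0.70 ± 0.12 on the log2 scale (adjusted p = 0.000389). IDS, NPC1, CTSL and the tetraspanin CD63 fell by 1.01, 0.74, 0.67 and 0.58. The cysteine protease cathepsin L, encoded by CTSL, was at 68.2, 31.2, 51.0 and 63.3 CPM against 96.1, 91.3, 85.4 and 69.9 CPM, and its call was lost in 7 of 16 alternatives, among them those without cetuximab replicates 2 or 3 or non-invasive replicates 1, 2 or 3 (adjusted p up to 0.206). Against serum-free spheroids the cetuximab libraries still differed in 30 members, 27 lower and 3 higher (edgeR, 76.9% against 43.8% of all genes, 21.1% lower and 22.7% higher). Of these 30 calls 19 held in every alternative. The 3 higher ones did not: GUSB was lost in 7 of 16, GLA in 4 of 15 and NPC1 in 1 of 16. CTSS, for example, was at 3.59 ± 1.44 CPM with cetuximab and 60.3 ± 5.46 CPM without EGF, and PSAP at 435 ± 16.5 against 912 ± 46.6 CPM.

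In Kyse30 cetuximab was accompanied by 1 higher and 2 lower members (edgeR), 7.69% against 4.93% of genes, 1.85% higher and 3.08% lower, with medians of 0.06 and -0.03. With DESeq2 size factors in edgeR the split was 2 higher and none lower. CTSD rose by 1.47 ± 0.20 (adjusted p = 5.46e-05), and this call held in all alternatives. CTSL fell by 1.05 ± 0.31 (adjusted p = 0.0469) and NPC1 by 0.91 ± 0.26 (adjusted p = 0.0404). Both were lost in most alternatives: CTSL in 12 of 19 (adjusted p up to 0.499) and NPC1 in 10 (up to 0.394), including those without any 1 of the cetuximab libraries. The non-invasive libraries held 192, 78.6, 64.7 and 60.6 CPM of CTSL. Replicate 1, a high-MALAT1 library, was thus far above the rest, and replicate 3, the other such library, was not. Without invasive replicate 1 in the fit 5 members were higher and 3 lower (20.5% against 17.1%), adding PPT1, ASAH1, GRN and NPC2 to the higher and IDS to the lower genes.

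Against serum-free spheroids the Kyse30 cetuximab libraries differed in 1 member, CTSL, at 44.3, 49.6, 60.2 and 36.8 against 116, 132, 163 and 113 CPM (log2 -1.45 ± 0.31, edgeR adjusted p = 0.00947), or 2.56% of members against 3.13% of genes, 1.25% lower and 1.88% higher. Without invasive replicate 1 the count was 7 members, 1 higher and 6 lower (17.9% against 15.1%). CTSD was 0.13 above its serum-free level, with a 95% interval of -0.26 to 0.51. No member's cetuximab difference was called different between the lines (edgeR, 0 of 39, against 1.31% of genes, 0.751% higher and 0.561% lower), 5 being higher and 1 lower at an unadjusted p under 0.05, with 2 calls by DESeq2 and 1 by limma-voom. For CTSD the line difference was 0.83 (95% interval 0.35 to 1.31, adjusted p = 0.0864), and without invasive replicate 1 it was called (0.85 ± 0.22, adjusted p = 0.0163), together with SMPD1, acid sphingomyelinase.

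The comparison of the MEK inhibitor AZD6244, given with EGF, held the most higher members: in FaDu 15 were higher and 4 lower than in the non-invasive fraction (edgeR), 48.7% against 29.7% of all genes, of which 14.8% were higher and 14.9% lower. The median log2 difference was 0.35 for the members and 0.03 for all genes. CTSS stood at 36.7, 22.6, 31.2 and 25.5 CPM with AZD6244 and at 2.46, 1.16, 1.34 and 3.63 CPM in the non-invasive fraction, without overlap (log2 3.74 ± 0.37, adjusted p = 1.54e-08). CTSD rose by 1.48 ± 0.12 (adjusted p = 7.99e-10) and CTSC, cathepsin C, which activates serine proteases of immune cells, by 1.28 ± 0.28. Of the glycosidases GAA, FUCA1, NAGLU and HEXA rose, by 1.45, 1.27, 1.09 and 0.64. LIPA, ASAH1 and PSAP rose by 1.23, 0.79 and 0.61, and of the membrane group SCARB2, GRN, LAPTM4A, LAMP2 and ATP6AP1 rose, by 0.68, 0.60, 0.59, 0.51 and 0.47. SCARB2, the sorting receptor of glucocerebrosidase, and CTSC were called in this comparison although neither had passed the test in the EGF comparison. The same held for CTSL and CD63 among the lower members.

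The 4 members that were lower with AZD6244 in FaDu were IDS, NPC1, CTSL and CD63. IDS held 14.8, 28.1, 24.0 and 25.3 CPM with AZD6244, 65.2, 44.0, 56.2 and 60.0 CPM in the non-invasive fraction and 28.2, 32.4, 33.2 and 34.5 CPM without EGF. NPC1 held 40.9, 46.1, 31.2 and 44.2 CPM, 76.9, 86.4, 84.0 and 99.7 CPM, and 41.7, 36.4, 35.5 and 30.5 CPM in the same order. For both genes the non-invasive fraction lay above the serum-free and the AZD6244 libraries without overlap. Their log2 differences from the non-invasive fraction were -1.27 ± 0.22 for IDS (edgeR adjusted p = 5.43e-05) and -1.10 ± 0.15 for NPC1 (adjusted p = 4.41e-06). Of the 19 calls 13 held in every alternative, and those lost in some were ATP6AP1, CD63, CTSL, HEXA, LAMP2 and SCARB2 (adjusted p from 0.0845 to 0.221 at most), all but LAMP2 by leaving out single libraries of either group.

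Against serum-free FaDu spheroids 12 members were still lower with AZD6244 and none was higher (edgeR, 30.8% against 19.4% of all genes, 8.63% lower and 10.8% higher). The largest differences were in CTSH, at 4.63 ± 2.04 against 29.3 ± 2.07 CPM, and CTSS, at a log2 difference of -1.06 ± 0.29. GAA, CTSB, CTSD, GRN, TPP1, ASAH1, CTSA, LAPTM4A, PPT1 and PSAP followed, from -1.02 to -0.31. In a fit over all 40 libraries 6 were called.

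In Kyse30 4 members were higher and 1 lower with AZD6244 (edgeR), 12.8% against 4.56% of all genes, 1.65% higher and 2.91% lower, and the median was 0.34 for the members and -0.02 for all genes. CTSS stood at 113, 95.6, 207 and 83.1 CPM with AZD6244 and at 75.8, 23.0, 23.9 and 9.92 CPM in the non-invasive fraction (log2 1.92 ± 0.51, adjusted p = 0.0259). ASAH1 rose to 123, 126, 147 and 114 CPM from 78.6, 40.9, 42.7 and 37.9 CPM (log2 1.35 ± 0.33, adjusted p = 0.0139), and PPT1 to 401, 307, 377 and 216 CPM from 170.5, 148, 105 and 135 CPM (log2 1.22 ± 0.24, adjusted p = 0.0028). None of these 3 genes overlapped between the groups. CTSD rose by 0.95 ± 0.20 (adjusted p = 0.00443). IDS, at 182, 181, 146 and 112 CPM against 315, 326, 351 and 332 CPM, fell by 1.09 ± 0.17 (adjusted p = 0.000281), the 1 call here that held in every alternative. The calls on CTSS and ASAH1 were lost without AZD6244 replicate 3 or non-invasive replicates 2, 3 or 4, and that on CTSS also without AZD6244 replicate 1 (adjusted p up to 0.158 and 0.071), and those on CTSD and PPT1 without both high-MALAT1 libraries (0.0563 and 0.0505). Without invasive replicate 1 there were 8 higher and 2 lower members (25.6% against 14.4%), the additions being PSAP, GRN, LAMP2 and LAPTM4A, which were higher, and NPC1, which was lower.

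PPT1 lies over the opposite strand of CAP1, and the strand setting of the counting is not given, so reads of the 2 genes may not be separable. CAP1 was at log2 1.67 with EGF and -1.31 with AZD6244 in FaDu (both called), while PPT1 was at -0.87 with EGF and did not pass the test with AZD6244. In Kyse30 CAP1 rose by 1.15 with EGF, where PPT1 fell by 1.14. NPC1 overlaps RMC1 on the opposite strand, and RMC1 was not called in any comparison within a line. MCOLN1 overlaps PNPLA6 on the same strand, where no strand setting can separate the reads, and PNPLA6 was not called in any comparison within a line either. Near their 3′ ends CTSD, HEXA, NAGLU and TPP1 overlap other annotated genes on the same strand, and CTSA, GLA and SGSH on the opposite strand. These overlapping genes are not in the count table, and how reads in the overlaps were counted is not given. Copies of CTSL, IDS, FUCA1, GUSB, GM2A and LGMN exist in the genome, and their counts are uncertain to that extent.

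Against serum-free Kyse30 spheroids NPC2 was the 1 member that differed with AZD6244, at 277, 306, 266 and 253 against 515, 547, 457 and 457 CPM (log2 -0.84 ± 0.19, edgeR adjusted p = 0.0103), 2.56% of members against 3.9% of genes, 1.61% lower and 2.29% higher. Without invasive replicate 1 there were 4, with CTSB also lower and LIPA and CTSZ higher (10.3% against 15.4%). CTSD was at log2 -0.39 (95% interval -0.78 to -0.0018, adjusted p = 0.327). The interaction test for AZD6244 called none of the 39 members (edgeR, against 5.1% of genes, 2.27% higher and 2.83% lower), with 2 higher and 4 lower at an unadjusted p under 0.05, 2 calls by DESeq2 and none by limma-voom. Without invasive replicate 1 GAA (log2 -1.10, adjusted p = 0.0195) and PPT1 (log2 0.90, adjusted p = 0.0112) differed between the lines.

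**Figure D4:**
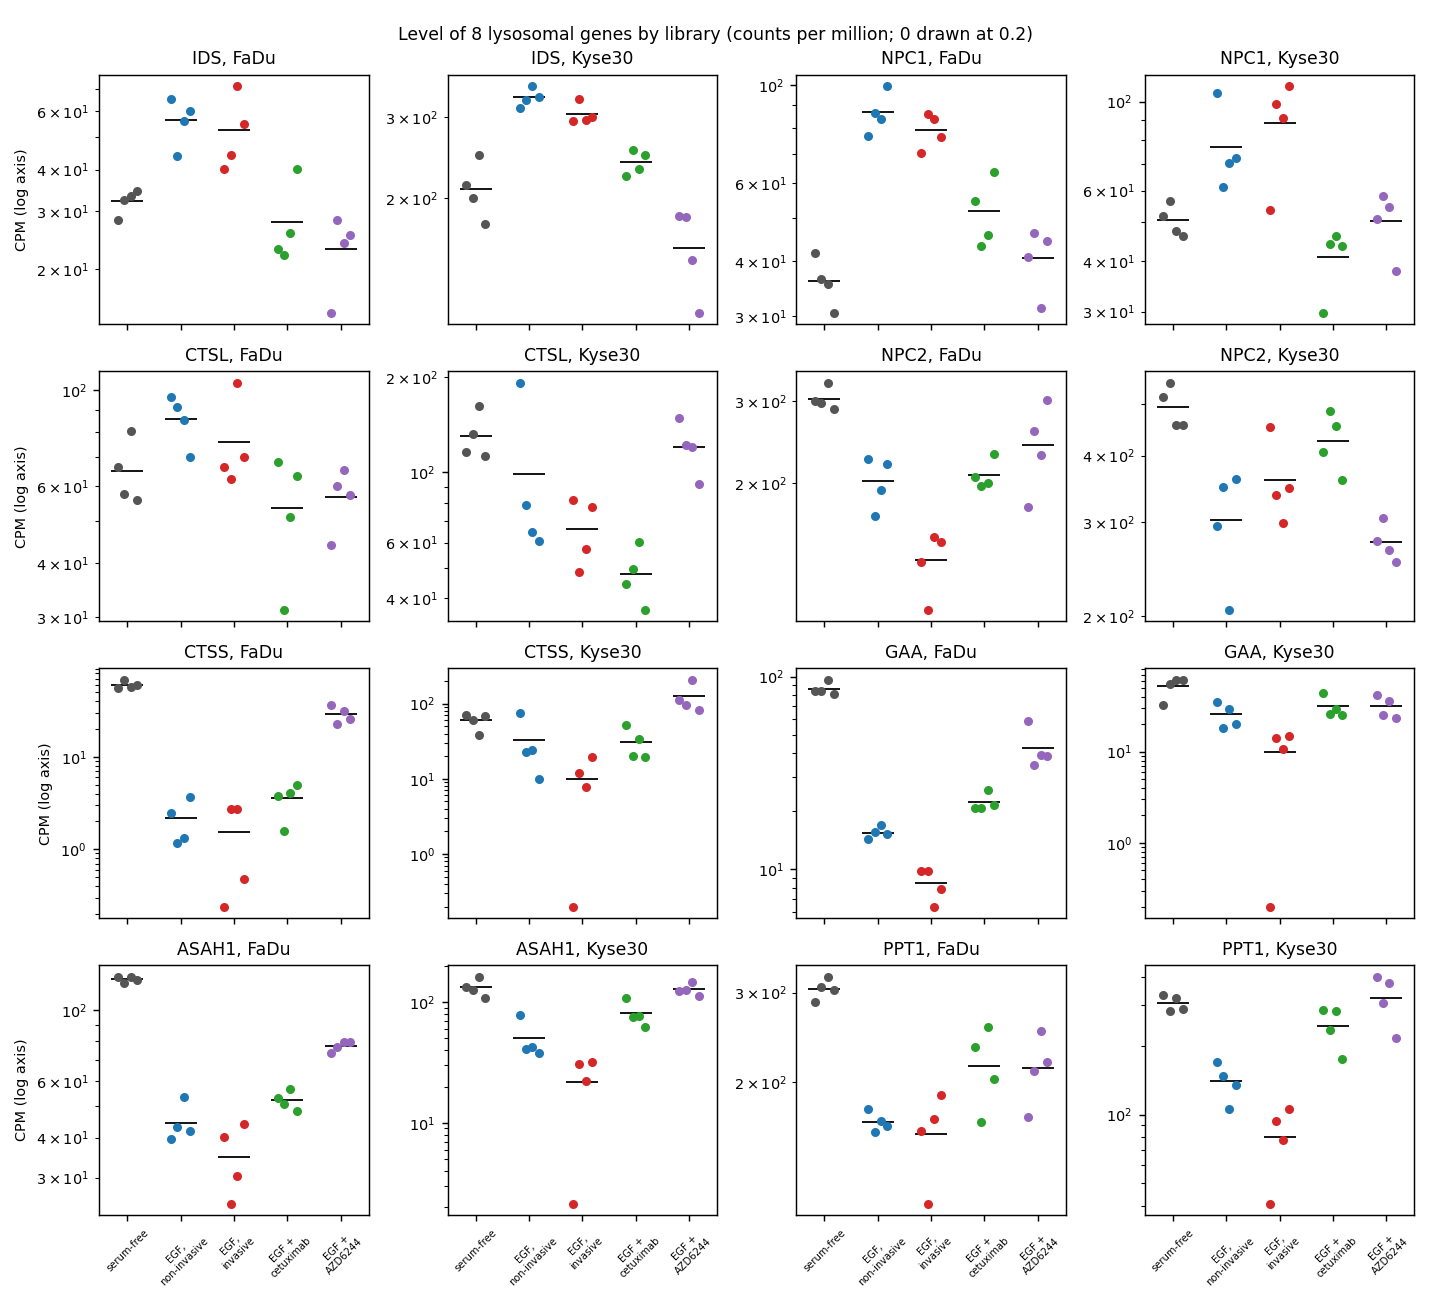
Level (y axis, CPM on a log axis that differs between panels) of IDS, NPC1, CTSL, NPC2, CTSS, GAA, ASAH1 and PPT1 in each library of the 5 groups (x axis) of FaDu and Kyse30; horizontal bars are means and a level of 0 is drawn at 0.2. IDS and NPC1 have their highest means in the EGF fractions of FaDu, whereas CTSS, GAA, ASAH1 and PPT1 have their lowest means there.

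Both inhibitors were tested against the same non-invasive libraries, so their lists of called members are not compared. Side by side, CTSD stood at 222 ± 32.8 CPM with cetuximab and 381 ± 32.8 CPM with AZD6244 in FaDu, and at 913 ± 200 and 639 ± 144 CPM in Kyse30. CTSL stood at 47.7 ± 9.82 CPM with cetuximab and 121 ± 23.3 CPM with AZD6244 in Kyse30, and at 53.4 ± 16.5 and 56.7 ± 9.10 CPM in FaDu. IDS was at 27.7 ± 8.38 and 23.1 ± 5.77 CPM in FaDu and at 239 ± 14.6 and 156 ± 33.3 CPM in Kyse30. The difference between the inhibitors was not tested.

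In the EGF comparison of FaDu 12 of 24 further lysosomal hydrolases and activators were lower and 2 higher, and 9 of 18 further lysosomal membrane proteins were lower and 1 higher (edgeR), with median log2 changes of -0.83 and -0.58. The cathepsin gene CTSO fell by 3.67 and PLD3, a lysosomal exonuclease, by 1.35, whereas CD68 rose by 3.00 and GGH, gamma-glutamyl hydrolase, by 1.99. The 15 proton pump subunits were split, with 2 lower and 3 higher and a median of 0.07. The subunit gene ATP6V1B1 was called lower in both lines and had no count in the 4 non-invasive FaDu libraries, so no fold change is given there; in Kyse30 it fell by 3.84. Of 14 genes of mannose 6-phosphate tagging and sorting 3 were lower (GNPTG, IGF2R and GGA2) and 2 higher, and of 19 genes of the TFEB family and mTORC1 5 were lower, among them RRAGD at -1.92, and 1 higher. Of 17 autophagy genes 6 were lower, GABARAPL1 most at -1.59, and 1 higher. Of 7 cathepsin inhibitors SERPINB1, CST6 and SERPINB6 rose and CSTA fell. Beside the 50% of all genes called here (24.7% lower and 25.3% higher), the shares called were 58.3% of the hydrolases, 55.6% of the membrane proteins and 57.1% of the cathepsin inhibitors, and lower than that of all genes for the pump subunits (33.3%), the sorting genes (35.7%), the TFEB and mTORC1 genes (31.6%) and the autophagy genes (41.2%).

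In Kyse30 the corresponding counts for EGF were 2 lower and 0 higher of 24 further hydrolases, 0 and 1 of 18 membrane proteins, 1 and 0 of 15 pump subunits, 0 and 1 of 14 sorting genes, 0 and 0 of 19 TFEB and mTORC1 genes, 1 and 2 of 18 autophagy genes, and 0 and 3 of 6 cathepsin inhibitors (edgeR), beside 4.76% of all genes lower and 8.1% higher. The cathepsin inhibitors that rose were CSTB by 2.02, SERPINB1 by 1.53 and CST3 by 1.33. The serpin gene SERPINB1, which encodes an inhibitor of neutrophil serine proteases, thus rose in both lines. With AZD6244 in FaDu 7 of the 24 hydrolases and 6 of the 18 membrane proteins were higher and 1 of each lower. That is 29.2% and 33.3% higher beside 14.8% of all genes, with SCPEP1, CTSO and PRCP at 1.56, 2.96 and 1.23. Of the cathepsin inhibitors SERPINB1 and SERPINB6 fell by 1.49 and 0.70, whereas SERPINB13 rose by 2.54. Counts of the other lists are not given for AZD6244. In the invasive fraction of FaDu 3 of 7 cathepsin inhibitors (CSTA, SERPINB1 and SERPINB6), 1 of 18 membrane proteins (PLD3), 1 of 14 sorting genes (AP1S1) and 1 of 17 autophagy genes (ULK1) were lower, beside 2.34% of all genes, and none of the other lists' genes was called. In Kyse30 1 of 15 pump subunits (ATP6V1B1) and 1 of 18 membrane proteins (TMEM106B) were lower, beside 0.342% of all genes. No gene of these lists was higher in either line.

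In serum-free medium 11 members were higher and 8 lower in Kyse30 than in FaDu (edgeR), 48.7% against 43.5% of 12652 genes, of which 21.5% were higher and 22% lower. The lysosomal genes thus differed between the lines about as often as other genes did. Levels in this paragraph are scaled over all 40 libraries together, so they differ slightly from those scaled within a line. IDS stood at 206.8 ± 30.5 CPM in Kyse30 and 32.0 ± 2.73 CPM in FaDu (log2 2.69 ± 0.21, edgeR adjusted p = 3.93e-14). GLA, SMPD1, FUCA1 and CTSC were also higher in Kyse30, by 3.23, 2.14, 2.05 and 1.77. CTSZ and CTSH were lower, at 1.99 ± 1.58 against 20.9 ± 2.96 CPM and at 3.23 ± 2.31 against 29.2 ± 2.055 CPM. TPP1, tripeptidyl peptidase 1, and LAMP2 were lower by log2 -2.14 ± 0.28 and -1.62 ± 0.28. CTSD and PSAP, among the most abundant members in both lines, did not pass the test, CTSD at a log2 difference of 0.29 with a 95% interval of -0.05 to 0.63.

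**Figure D5:**
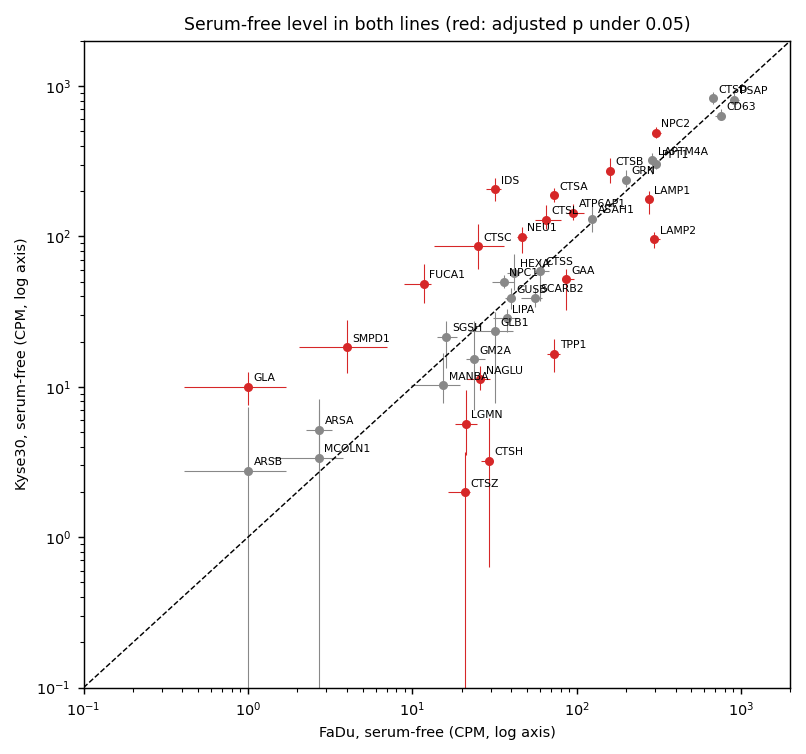
Mean level of each of the 39 genes in serum-free FaDu (x axis) and Kyse30 (y axis) spheroids, in CPM on log axes; bars run from the lowest to the highest of 4 libraries, with values of 0 drawn at the axis limit, the dashed line marks equal levels and red marks an adjusted p under 0.05. IDS, GLA and FUCA1 lie above the line and CTSZ, CTSH and TPP1 below it.

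Across the 8 comparisons that use the non-invasive fraction, 10 members were never called: ARSA, ARSB, CTSZ, GLB1, GM2A, GUSB, LGMN, MCOLN1, NEU1 and SMPD1. The share of all genes never called in these 8 is not given, so nothing is read from this count. Outside the 8, with cetuximab against serum-free medium in FaDu, GLB1, NEU1 and SMPD1 were called lower and GUSB higher. The NEU1 call held in all 16 alternatives, while GUSB was lost in 7, GLB1 in 6 and SMPD1 in 1. Of the 10 genes ARSA, ARSB and MCOLN1 averaged at most 6.21 CPM in any group, where a change of a given size is harder to detect than in the abundant genes. GUSB, beta-glucuronidase, lay between 37.0 ± 5.39 and 52.3 ± 5.99 CPM over the FaDu groups and between 24.4 ± 2.73 and 39.1 ± 5.16 CPM over the Kyse30 groups.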

How the data were processed

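Counts of reads, whole numbers for each gene and each of 40 libraries, are what the authors deposited; the libraries came from a 3′ messenger RNA kit (Lexogen QuantSeq), per the labels' protocols. STAR, HTSeq and the build GRCh38 are named per the submitters' processing notes; versions, the annotation, the strand setting, any use of molecular identifiers and the choice of the 12655 genes were not given in the sources used here. All columns matched a sample (0 did not).

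From these counts R 4.3.3 was used to fit edgeR 4.0.16 (filterByExpr, TMM, quasi-likelihood F-test) to the 20 libraries of each line, with 1 coefficient per group, and to all 40 for comparisons between lines. Calls are at an adjusted p under 0.05 (Benjamini-Hochberg over all genes tested), errors are SE for log2 fold changes and SD for levels, and intervals are 95%. They do not cover error shared by the libraries of a group. CPM values were computed here from the counts. Numbers of members at an unadjusted p under 0.05 stand without the share of all genes at that threshold, so nothing is read from them. An adjusted p given as "up to" a value is the highest over all alternatives. The scripts were tested on simulated data. Alternatives were DESeq2 1.42.0, limma 3.58.1 (voom), other scaling, filters, sample sets, a replicate block and single libraries left out; removing 3 Kyse30 libraries together was chosen after seeing the data.

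Members and gene lists were chosen with earlier results of these data known. All members could be named, called ones with the largest change first; library values were given for CTSD and the members called most often in 1 direction (IDS, NPC1, CTSL and NPC2), and those of CTSS, GAA, ASAH1 and PPT1, the CTSD promoter and the genes singled out from the other lists were added after their values were seen. Promoters are from RefSeq (GRCh38.p14) and gene positions and overlaps from GENCODE.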

Additional observations from a re-analysis of the deposited data

Results flagged for a closer look

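Single libraries stood apart from the other 3 of their group in 8 of 100 gene-by-group sets examined, where chance alone gives about 1 in 20. In FaDu these were GAA in serum-free replicate 3 (96.2 CPM), CTSD in non-invasive replicate 2 (106 CPM, the lowest of its group) and GAA in cetuximab replicate 3 (25.9 CPM). In Kyse30 non-invasive replicate 1 was high for both CTSL (192 CPM) and ASAH1 (78.6 CPM), and 6.27% of its counts were MALAT1. Non-invasive replicate 3, with 9.63% MALAT1, was not set apart, at 64.7 CPM of CTSL and 42.7 CPM of ASAH1. The others in Kyse30 were IDS in invasive replicate 2 (329 CPM), NPC1 in cetuximab replicate 1 (29.8 CPM, the lowest) and CTSD in AZD6244 replicate 3 (852 CPM).

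The EGF contrast differed between the lines, by the edgeR interaction test, for 7 members. The log2 difference, Kyse30 minus FaDu, was 0.87 for GRN, 0.975 for CTSD, 1.35 for NAGLU, 1.44 for GAA, 1.47 for LIPA, 3.94 for CTSS and 3.97 for CTSH. Those of CTSS and CTSH were called in all 11 alternatives, and each of the other 5 calls was lost in at least 1.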

How the results depend on the processing

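Of 140 member calls over all comparisons 91 held in every alternative, 49 were lost in at least 1 and 0 changed direction. Counts of called members that moved by more than 1.5 times were as follows, the cause not being tested. The share of all genes called in the same fits is given below only for the Kyse30 fits without invasive replicate 1. For the other fits a change in the members can therefore not be told apart here from a change over all genes. FaDu invasion (3 called) gave 6 with DESeq2, 1 with limma-voom, 0 in one fit over all 40 libraries and 1 to 3 with single libraries left out. FaDu AZD6244 against serum-free (12) gave 6 over 40 libraries. Kyse30 EGF (9) gave 14 from only the 8 libraries compared, 5 without both high-MALAT1 libraries, 19 without these and invasive replicate 1, and 6 to 16 with single libraries left out. Kyse30 invasion (1) gave 4 with DESeq2, 0 with limma-voom, 5 over 40 libraries, 0 from 8, 0 without both high-MALAT1 libraries and 0 to 2 with single libraries left out. Kyse30 cetuximab (3) gave 6 with DESeq2, 7 over 40 libraries, 1 without both high-MALAT1 libraries, 5 without 3 libraries and 1 to 8 with single libraries left out. Kyse30 AZD6244 (5) gave 8 with DESeq2, 3 without both high-MALAT1 libraries and 3 to 10 with single libraries left out. Against serum-free, Kyse30 cetuximab (1) gave 4 with DESeq2, 3 with limma-voom, 4 over 40 libraries, 7 from 8, 9 without 3 libraries and 1 to 7 with single libraries left out, and Kyse30 AZD6244 (1) gave 2 with DESeq2, 3 over 40 libraries, 9 from 8, 8 without 3 libraries and 1 to 4 with single libraries left out. The highest leave-one-out counts in Kyse30 came without invasive replicate 1. That fit called 27.8% of all genes for EGF, 2.1% for invasion, 17.1% for cetuximab and 14.4% for AZD6244. With that library in the fit the shares were 12.9%, 0.409%, 4.93% and 4.56%. Against serum-free the shares without it were 15.1% for cetuximab and 15.4% for AZD6244, and with it 3.13% and 3.9%. Of the tests between lines, EGF (7) gave 3 to 11 when a replicate number was left out, invasion (0) gave 1 with DESeq2, cetuximab (0) gave 2 with DESeq2, 1 with limma-voom and 0 to 2 by replicate, and AZD6244 (0) gave 1 with DESeq2 size factors, 2 with DESeq2 and 0 to 2 by replicate. With the replicate block, Kyse30 invasion gave 0 calls and Kyse30 cetuximab 1. Same-numbered libraries of different groups had a mean correlation of 0.00781 in FaDu and 0.0226 in Kyse30, with single pairs up to 0.328 and 0.366. Of 20 libraries per line, 7 and 9 correlated best with their own number. These values are taken over all groups. They cannot show whether the invasive and non-invasive fractions of the same number were paired. The shallow Kyse30 library limits what can be detected for members at a few CPM.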
